A study of Mus musculus with 8 samples.

Results

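The 40 interferon-stimulated genes described here are a fixed list of antiviral effectors, sensors and modifiers, found by symbol in a table of 55471 gene rows. RNA came from hippocampal microglia of C57/Bl6 mice at postnatal day 30, sorted through a gate for CD45lo CD11B+ cells without Ly-6C, 4 hours after an injection of IL-33 (replicates 1 to 4) or of PBS (replicates 5 to 8). Each group held 2 female and 2 male libraries, and the labels give no transgene, dose or injection site. All 40 genes had a row. Reads were present for 38 of them, all 38 reached the minimum mean of 10 normalized reads needed for testing, and Oas2 and Oas3 had no read in any library.

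Interferon-stimulated genes are switched on when interferons bind their receptors and the JAK kinases activate STAT transcription factors. STAT complexes bind a pair of DNA motifs, the interferon-stimulated response element (ISRE), where IRF9 takes part, and the gamma-activated site (GAS). NF-κB and interferon regulatory factors can also act at many of these promoters, so that part of the programme responds to stimuli other than interferon. In microglia, the resident macrophages of the brain, the programme is known from viral infection, ageing and neurodegeneration.

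Libraries held 16827343 to 21483352 reads assigned to genes, and a value below is a read count scaled by 1 factor per library. The fewest genes with at least 10 reads were seen in IL-33 replicates 3 (8948) and 4 (7958). As a check of the sorted cell type, the summed level of 9 microglial markers ran from 355960 to 624034 after IL-33 and from 502950 to 723194 after PBS, with 3 of the 9, P2ry12, Csf1r and Sall1, called lower in limma. The Csf1r call was lost in 12 of 19 alternatives, edgeR (0.153) and DESeq2 (0.117) among them (adjusted p 0.000204 to 0.557). All 5 neutrophil markers were at 0 and the 5 monocyte markers summed to at most 119 after IL-33 and 161 after PBS. The 4 B cell markers summed to 1809 to 4779 after IL-33 and 267 to 846 after PBS. Most of that was Cd79b, which was called higher (log2 fold change 2.75 with SE 0.53, adjusted p = 0.00297), while Cd79a and Ms4a1 were at 0. Oligodendrocyte markers summed to 2370.2 to 4952 after IL-33 and 1361 to 3296 after PBS, with Mbp not overlapping (limma adjusted p = 0.167, DESeq2 0.0365). Astrocyte markers summed to 387 to 1053 and 68.1 to 588, dendritic cell markers to 190.1 to 766 and 1.46 to 273, and T and NK cell markers to 0 to 738 and 0 to 1.46. The dendritic cell marker Xcr1 read 190.1, 765, 391 and 0 against 0, 1.70, 0 and 1.46 (adjusted p = 0.180 in limma, 0.0440 in edgeR and 2.9e-05 in DESeq2). The part of these shifts in the results below was not tested. In bulk RNA a change in the number of cells of a kind and a change in RNA per cell cannot be told apart.

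After IL-33, 4 of the 40 genes rose. Gbp2 and Gbp5 (guanylate-binding proteins), Isg15 (a ubiquitin-like modifier) and Ifitm3 (a membrane protein that blocks virus entry) were called higher at an adjusted p under 0.05 in limma, and no member was called lower. That is 4 of 38 tested members (10.5%), against 3.06% of all 13877 tested genes called higher and 2.8% called lower. The remaining 34 members were not called. A call means this limma fit throughout, and calls by another test or setting are named as such. At an unadjusted p under 0.05 in limma there were 12 members, beside 19.4% of all tested genes: the 4 called, Ifit1, Ifit2, Ifit3, Ifitm2, Gbp3 and Parp14 with fold changes above 0, and Samhd1 and Xaf1 below. Among recovered reads, edgeR called 5 members higher (3.16% of all genes) and none lower (2.29%). DESeq2 called 9 higher (6.93%) and none lower (7.64%).

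The list as a whole was mixed. Of the 38 tested members, 24 had a log2 fold change above 0 (25 under quantile normalization) and 14 below, where 41.3% of all tested genes lay above 0. The median was 1.24 over members and −0.40 over all tested genes. Over the 8 members with a mean of at least 1000 it was 0.38, and over all tested genes of that level 0.08. The −0.40 over all tested genes became −0.081 in edgeR, −0.089 in DESeq2 and −0.12 under quantile normalization. In the same order the members' median was 1.25, 1.25 and 1.56. For 8 members (21.1%) every IL-33 library lay above every PBS library, beside 6.26% of all tested genes; these were Isg15, Ifit3, Ifitm2, Ifitm3, Gbp2, Gbp3, Gbp5 and Parp14. For Dtx3l and Xaf1 every IL-33 library lay below, a pattern seen in 7.41% of all tested genes.

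**Figure D1:**
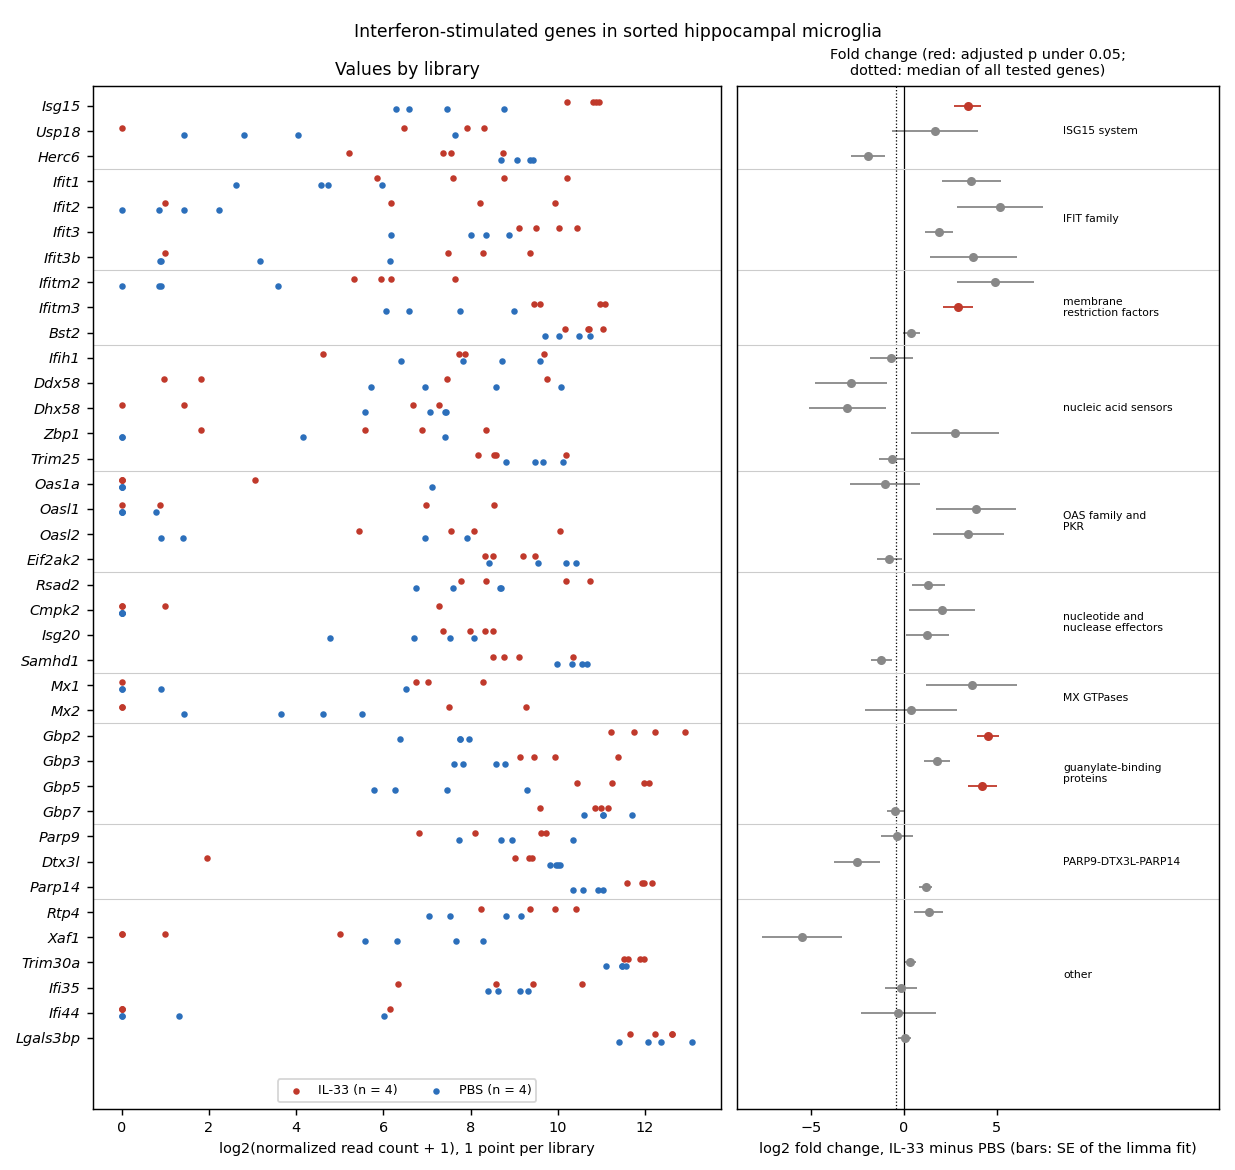
Left, log2(normalized read count + 1) of each tested member in 4 IL-33 libraries (red points) and 4 PBS libraries (blue points); right, log2 fold change with its standard error, in red for the 4 members called, with the median of all tested genes (−0.40) as a dotted line. Isg15, Ifitm3, Gbp2 and Gbp5 are the called members, and many of the others have points spread over most of the axis within a group. Cmpk2 had no read after PBS, so its fold change is set by the added 1.

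In the summed signal, the 40 members took 0.207% ± 0.0225 of all reads after IL-33 and 0.139% ± 0.0155 after PBS (SD, n = 4 each). The 4 called members alone made up 0.0599% ± 0.00514 and 0.00523% ± 0.00408. For the other 36 the shares were 0.148% ± 0.0192 and 0.134% ± 0.0177, which overlap. The called members were picked by the same contrast, so their share is a description. Among the controls it was highest in PBS replicate 8, at 0.0113%.

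Isg15 encodes a ubiquitin-like protein that is attached to other proteins during antiviral responses. Values are listed from replicate 1 to 4 for IL-33 and 5 to 8 for PBS throughout. Isg15 had normalized read counts of 1870.3, 1176, 1982 and 1804 after IL-33 and of 77.1, 176, 94.5 and 432 after PBS. The groups did not overlap, and PBS replicate 8 was the highest control (log2 fold change 3.44 with SE 0.72 and 3.11 to 4.18 over alternatives, adjusted p = 0.00581; adjusted p over 19 alternatives 2.0e-05 to 0.0472). Usp18, the protease that removes ISG15 and restrains the type I interferon receptor, read 316, 241, 87.8 and 0 against 1.69, 5.96, 199 and 15.4. It had no read in IL-33 replicate 4 and a high value in PBS replicate 7, so the groups overlapped (log2 fold change 1.70 with SE 2.33 and 0.82 to 4.14 over alternatives, adjusted p = 0.694). Herc6, the ligase that attaches ISG15 in mice, was likewise not called, at 165, 188, 429 and 36.3 against 662, 537, 414 and 692 (log2 fold change −1.92 with SE 0.93 and −2.42 to −1.25 over alternatives, adjusted p = 0.266). Only IL-33 replicate 3 reached into the PBS range. In the last 600 bases of its transcripts, where this assay reads, Herc6 shares 23.4% of 50-base windows with Gm45193.

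Members of the IFIT family bind viral RNA and block its translation. All 4 had a fold change above 0 and none was called. Ifit3 was the 1 gene of the 4 whose groups did not overlap, at 1395, 719, 1038 and 549 after IL-33 and 474, 328, 259 and 71.0 after PBS (log2 fold change 1.90 with SE 0.78, adjusted p = 0.176). Ifit1 read 433, 194, 57.2 and 1178 against 22.9, 5.11, 61.6 and 25.6, with IL-33 replicate 3 inside the PBS range (log2 fold change 3.64 with SE 1.59 and 2.94 to 4.72 over alternatives, adjusted p = 0.209). Ifit2 was at or near 0 after PBS, at 1.69, 0, 0.822 and 3.66, and read 71.7, 297, 0.987 and 979 after IL-33 (log2 fold change 5.20 with SE 2.31 and 4.00 to 7.76 over alternatives, adjusted p = 0.217). Ifit1, Ifit2 and Ifit3b were each highest in IL-33 replicate 4 and lowest in replicate 3, whereas Ifit3 was highest in replicate 1 and lowest in replicate 4. Ifit3b itself ranged from 0.987 to 654 after IL-33 and from 0.847 to 70.7 after PBS. DESeq2 called Ifit1 (adjusted p = 0.00411) and Ifit2 (adjusted p = 3.6e-05), where the range over all alternatives was 0.00411 to 0.419 and 3.6e-05 to 0.385. Ifit3 and Ifit3b share 18.0% of their end windows, so reads could have been split between them.

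Membrane factors that stop viruses at entry or exit gave 1 call among 3 genes. Ifitm3, which keeps virus and cell membranes from fusing, read 2184, 2013, 776 and 706 after IL-33 and 215, 65.6, 94.5 and 509 after PBS. The lowest IL-33 library, replicate 4, lay above the highest control, PBS replicate 8 (log2 fold change 2.94 with SE 0.81 and 2.51 to 3.69 over alternatives, adjusted p = 0.0372). The call was lost in 7 of 19 alternatives (adjusted p 0.00314 to 0.123), among them the fits without IL-33 replicate 1 (0.116) or 2 (0.121) and without PBS replicate 5 (0.0635), 6 (0.104) or 7 (0.0916). Its relative Ifitm2 read 199, 38.9, 60.2 and 71.6 against 11.0, 0.852, 0.822 and 0, again without overlap, but at few reads in PBS (log2 fold change 4.94 with SE 2.09 and 3.50 to 5.69 over alternatives, adjusted p = 0.194). Ifitm2 shares 38.8% of its end windows with Gm45717, so its reads are uncertain. Bst2, or tetherin, which holds new virus particles at the cell surface, overlapped between the groups, at 2102, 1675, 1664 and 1147 against 1039, 1699.8, 836 and 1437 (log2 fold change 0.42 with SE 0.46, adjusted p = 0.620).

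The guanylate-binding proteins, GTPases that assemble on intracellular pathogens and membranes, held 2 of the 4 calls. Gbp5, Gbp7, Gbp3 and Gbp2 lie in this order on chromosome 3, all on the plus strand and with Gbp2b between Gbp3 and Gbp2, between positions 142493978 and 142638008 of GRCm38. Gbp2 read 2394, 3447, 4828 and 7708 after IL-33 and 83.0, 214, 251 and 216 after PBS. All IL-33 libraries were far above all controls (log2 fold change 4.56 with SE 0.59, adjusted p = 4.2e-05; adjusted p over alternatives 1.4e-19 to 0.00673). Gbp5, which in macrophages promotes inflammasome activity, read 4369, 2438, 4016 and 1394 against 76.2, 174, 54.2 and 623. The groups did not overlap, although IL-33 replicate 4 and PBS replicate 8 lay closest (log2 fold change 4.24 with SE 0.76 and 3.72 to 5.18 over alternatives, adjusted p = 0.00148; adjusted p over alternatives 1.6e-06 to 0.0474). For Gbp3 the values were 563, 701, 975 and 2675 and 384, 441, 225 and 195. These did not overlap either, with replicate 4 far above the other IL-33 libraries (log2 fold change 1.77 with SE 0.70 and 1.09 to 2.05 over alternatives, adjusted p = 0.165; DESeq2 adjusted p = 0.0233, alternatives 0.0233 to 0.494). Gbp7 was already at 2118, 2104, 3331 and 1559 after PBS and read 1844, 777, 2031 and 2273 after IL-33, with overlapping groups (log2 fold change −0.45 with SE 0.45, adjusted p = 0.597). Gbp7 shares 637 exon bases with the processed pseudogene Gm43802 on the same strand.

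The difference between these 4 genes was tested on the log2 ratio of each pair within a library, by a two-sided exact permutation test over libraries for 6 pairs. The Gbp2 to Gbp7 ratio changed by 5.01 ± 0.54 (SE) between the groups, from −3.63 after PBS to 1.38 after IL-33. For Gbp5 to Gbp7 the change was 4.69 ± 1.11, for Gbp2 to Gbp3 2.79 ± 0.59 and for Gbp3 to Gbp7 2.23 ± 0.57. Each of these 4 reached p = 0.0286, the smallest that 4 against 4 libraries allow, and an adjusted p of 0.0429 in the exact permutation test. The Gbp3 to Gbp5 ratio changed by −2.47 ± 1.24 (permutation p = 0.0571, adjusted 0.0686). Gbp2 to Gbp5 changed by 0.32 ± 1.03 (permutation p = 0.686), an estimate whose error spans changes in either direction. Leaving out any 1 library kept the first 4 changes between 1.90 and 5.55. The 6 pairs share 4 genes and were set up with these values known. Their p-values therefore describe the ratios and are not independent tests.

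**Figure D2:**
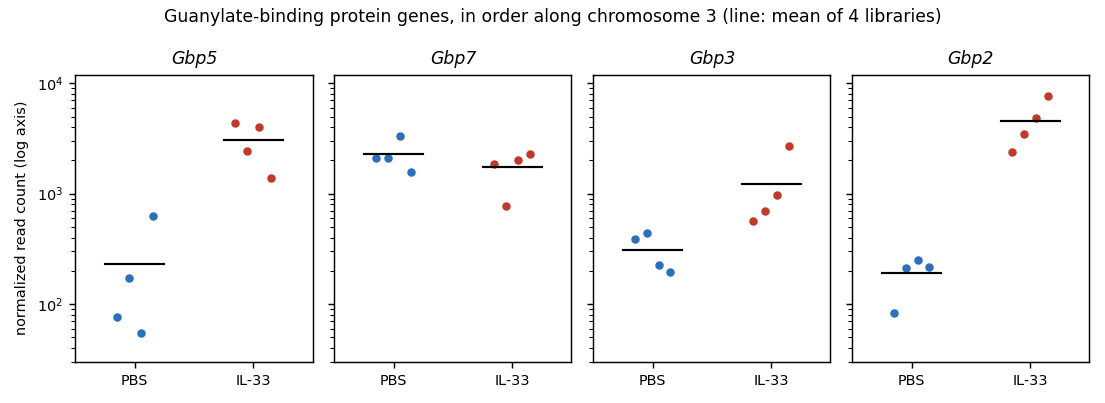
Normalized read counts on a log axis of 4 guanylate-binding protein genes in order along chromosome 3, for 4 PBS libraries (blue) and 4 IL-33 libraries (red), with the mean of each group as a line. Gbp5 and Gbp2 reach at most 623 in a PBS library and at least 1394 in an IL-33 library, while Gbp7 lies between 777 and 3331 across both groups.

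Promoters of the 4 called genes and of Gbp7 and Gbp3 are printed to set the called and uncalled genes of the cluster beside each other. The windows, from RefSeq on GRCm38.p6, run from 250 bases before a transcript start to 29 bases after it and read 5′ to 3′ on the gene's strand. Capitals mark every match to the ISRE letters (GAAA, any 2 bases, then GAAA), the GAS letters TTCNNNGAA or the NF-κB motif, on either strand. By GENCODE release M21, the Isg15 gene lies at chr4:156199424-156200818 and Ifitm3 at chr7:141009586-141010770, both on the minus strand. The Isg15 window is chr4:156200789-156201068 (minus strand), Ifitm3 at chr7:141010715-141010994 (minus), Gbp2 at chr3:142620413-142620692, Gbp5 at chr3:142496684-142496963, Gbp7 at chr3:142530086-142530365 and Gbp3 at chr3:142559794-142560073 (all plus).
Isg15: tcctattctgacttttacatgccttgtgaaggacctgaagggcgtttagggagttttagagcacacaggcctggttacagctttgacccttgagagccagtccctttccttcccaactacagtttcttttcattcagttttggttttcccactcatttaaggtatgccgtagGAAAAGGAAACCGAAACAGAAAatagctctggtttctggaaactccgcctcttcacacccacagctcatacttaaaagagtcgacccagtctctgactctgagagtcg
Ifitm3: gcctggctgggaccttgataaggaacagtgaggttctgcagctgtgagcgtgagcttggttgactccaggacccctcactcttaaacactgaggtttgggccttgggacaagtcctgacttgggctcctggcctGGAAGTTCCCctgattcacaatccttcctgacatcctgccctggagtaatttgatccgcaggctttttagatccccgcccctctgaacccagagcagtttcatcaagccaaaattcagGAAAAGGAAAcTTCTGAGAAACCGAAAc
Gbp2: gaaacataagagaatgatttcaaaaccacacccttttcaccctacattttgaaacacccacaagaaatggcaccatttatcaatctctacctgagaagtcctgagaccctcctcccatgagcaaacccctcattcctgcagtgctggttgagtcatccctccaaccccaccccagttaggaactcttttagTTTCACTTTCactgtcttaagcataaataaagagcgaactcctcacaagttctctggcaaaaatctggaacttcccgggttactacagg
Gbp5: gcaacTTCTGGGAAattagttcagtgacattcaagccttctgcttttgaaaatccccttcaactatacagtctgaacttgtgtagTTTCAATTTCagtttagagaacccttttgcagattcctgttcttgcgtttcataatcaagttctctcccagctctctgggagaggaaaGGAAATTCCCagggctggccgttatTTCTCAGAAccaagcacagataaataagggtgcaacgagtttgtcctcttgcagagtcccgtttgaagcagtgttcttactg
Gbp7: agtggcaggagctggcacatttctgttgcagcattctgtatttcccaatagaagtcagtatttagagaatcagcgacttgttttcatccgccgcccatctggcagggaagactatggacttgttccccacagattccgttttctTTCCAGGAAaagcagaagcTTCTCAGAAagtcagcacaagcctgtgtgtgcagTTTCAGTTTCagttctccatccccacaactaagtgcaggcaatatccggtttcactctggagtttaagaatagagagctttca
Gbp3: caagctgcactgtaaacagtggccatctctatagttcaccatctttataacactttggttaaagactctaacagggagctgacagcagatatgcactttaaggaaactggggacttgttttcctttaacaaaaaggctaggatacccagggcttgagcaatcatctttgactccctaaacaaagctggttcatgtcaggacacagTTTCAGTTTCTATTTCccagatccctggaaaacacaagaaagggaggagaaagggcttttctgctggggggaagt

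Isg15 held 3 overlapping ISRE matches between bases −78 and −57 from its start. Gbp2 held 1, from −59 to −50, and Gbp7 held 1 at nearly the same distance, from −53 to −44. Gbp5 had an ISRE match at −165, an NF-κB match at −77 and 2 GAS matches, the nearer at −52. In Ifitm3 the ISRE matches lay just after the start, at 2 and 19, with a GAS match at 13 between them and an NF-κB match at −116. Gbp3 had 2 overlapping ISRE matches from −45 to −30 in the printed window. Another RefSeq window of Gbp3, at chr3:142560106-142560405, held no ISRE, GAS or NF-κB match. The uncalled Gbp7 and the called Gbp2 and Gbp5 each carried the ISRE letters, and Gbp7 and Gbp5 each held 2 GAS matches. Whether these matches bear on the calls was not tested.

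Of the 40 members, 31 had a RefSeq window of 250 bases before to 50 after the start. A gene with several windows was counted as having a motif if any of them held a match. An ISRE match was present in 18 of the 31 (58.1%), beside 3.99% of 27025 genes. GAS letters were present in 10 (32.3%), beside 9.55%, and the NF-κB motif in 5 (16.1%), beside 6.55%; these 5 were Gbp5, Ifit2, Ifitm3, Isg20 and Oasl1. ISRE and GAS letters can share bases, and each motif was counted on its own. Among tested members, the 17 with an ISRE match included all 4 calls and had a median log2 fold change of 1.77, with values from −2.84 to 4.94. The 13 without one included no call and had a median of −0.15, with values from −5.46 to 5.20. For the GAS letters the split ran the other way, with a median of 0.13 over the 10 members with a match and 1.55 over the 20 without, and 2 calls in each. The 5 members with an NF-κB match had a median of 3.90, with all 5 above 0 and 2 called, and the 25 without had 0.04, with 13 above 0 and 2 called. Of all tested genes, 3.06% were called higher. The 3.90 is the value of Oasl1, an uncalled gene with more than 3 reads in only 2 libraries. Ifit2, the highest of the 5 at 5.20, was also uncalled and read 0.987 in IL-33 replicate 3. These splits overlap in their members and were not tested. A match is a description of these letters and not evidence that a factor bound there.

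**Figure D3:**
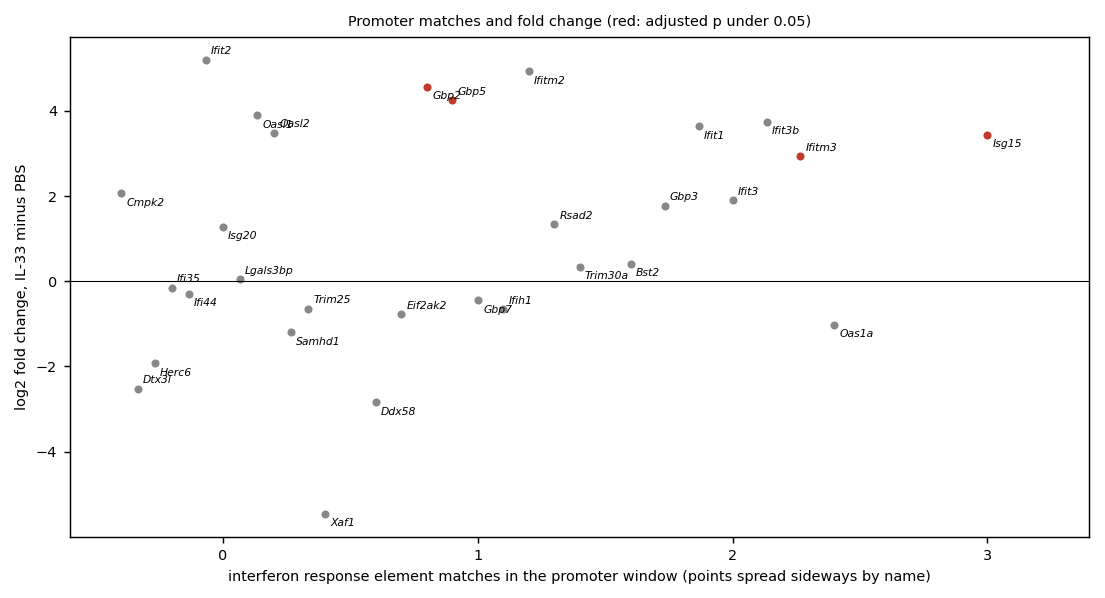
Log2 fold change of 30 tested members (vertical axis) against the number of ISRE matches in the promoter window (horizontal axis, points spread sideways by name), in red for called genes. Called genes sit at 1, 2 and 3 matches, and uncalled genes such as Oas1a (2 matches) and Ddx58 (1 match) sit below 0.

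The cytosolic nucleic acid sensors, which detect viral RNA or DNA and start interferon production, gave no call among 5 genes, and 4 of the 5 had a fold change below 0 (3 under quantile normalization, where Ifih1 was at 0.10). Trim25, a ubiquitin ligase that acts on RIG-I, had the highest mean of them at 288, 382, 373 and 1175 after IL-33 and 714, 1115, 447 and 803 after PBS. IL-33 replicate 4 exceeded every control while the other 3 lay below all of them (log2 fold change −0.64 with SE 0.68, adjusted p = 0.605). Ddx58, which encodes RIG-I, scattered from 0.955 to 863 after IL-33 and from 51.8 to 1076 after PBS (log2 fold change −2.84 with SE 1.92 and −4.42 to −0.63 over alternatives, adjusted p = 0.438). edgeR and DESeq2 gave Ddx58 log2 fold changes of −0.63 and −0.65. Ifih1, the MDA5 sensor of long double-stranded RNA, spanned 23.7 to 827 and 83.5 to 776 (log2 fold change −0.66). Dhx58, or LGP2, which tunes the other sensors, ran from 0 to 153 and from 46.9 to 171. Zbp1, a sensor of Z-form nucleic acid that can trigger necroptosis, ran from 2.54 to 325 after IL-33 and from 0 to 169 after PBS. Wide spread within both groups was common to the sensors.

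Oligoadenylate synthetases make the messenger that activates RNase L, and PKR (Eif2ak2) halts translation on sensing double-stranded RNA. None of the 4 tested genes was called. Eif2ak2, the most abundant of them, read 713, 587, 363 and 322 after IL-33 and 1165, 749, 344 and 1375 after PBS, with overlap (log2 fold change −0.77 with SE 0.66, adjusted p = 0.559). Oasl2 read 1058, 42.3, 267 and 187 against 242, 0.852, 1.64 and 124 (log2 fold change 3.48 with SE 1.93 and 2.07 to 4.69 over alternatives, adjusted p = 0.340). Oasl1, which in mice limits IRF7 translation, was at 125, 0.846, 0 and 369 after IL-33 and had a single read over the 4 PBS libraries. DESeq2 called it (adjusted p = 0.00833, alternatives 0.00833 to 0.554), yet only IL-33 replicates 1 and 4 had more than 3 reads. Oas1a was seen in 1 library of each group, at 7.27 and 138, and shares 64.1% of its end windows with Oas1g.

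Effectors that act on nucleotides or on RNA were not called either. Rsad2 (viperin), which makes a chain-terminating nucleotide, read 1161, 328, 220.1 and 1705 after IL-33 and 194, 417, 106 and 409 after PBS, with replicates 1 and 4 above all controls and replicates 2 and 3 inside their range (log2 fold change 1.33 with SE 0.87, adjusted p = 0.418). Cmpk2, the mitochondrial nucleotide kinase beside Rsad2 on chromosome 12, had no read in any PBS library and 155 in IL-33 replicate 2, with at most 1 read in each other IL-33 library. Against the floor of 3 counts, the IL-33 mean was at least 16.0-fold higher, a bound that rests on replicate 2. Isg20, an RNA exonuclease, ran from 163 to 367 and from 26.3 to 270 (log2 fold change 1.28 with SE 1.14 and 0.61 to 2.62 over alternatives, adjusted p = 0.571). Samhd1, which degrades the nucleotides needed for reverse transcription, read 363, 434, 548 and 1310.4 against 1495, 1011, 1277 and 1640.0. Here 3 IL-33 libraries lay below every control and replicate 4 lay among them (log2 fold change −1.20 with SE 0.57, adjusted p = 0.251; 0.0735 without IL-33 replicate 4).

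The MX GTPases, which trap viral nucleocapsids, had few reads. Mx1 read 129, 309.7, 0 and 106 after IL-33 and 91.5, 0.852, 0 and 0 after PBS, so 3 IL-33 libraries had reads where 2 controls had none (log2 fold change 3.66 with SE 2.44 and 2.56 to 5.80 over alternatives, adjusted p = 0.430). Mx2, annotated by GENCODE as a polymorphic pseudogene, had 179 and 618 in IL-33 replicates 2 and 3, none in replicates 1 and 4, and 1.70 to 44.7 after PBS.

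Parp14, Parp9 and Dtx3l lie side by side on chromosome 16 and encode enzymes of ADP-ribosylation and ubiquitylation that are induced together in interferon responses. Parp14, a mono-ADP-ribosyltransferase, read 4032, 4569, 3083 and 3908 after IL-33 and 1518, 1943, 2099.8 and 1305 after PBS. Its groups did not overlap and were tight (log2 fold change 1.19 with SE 0.35, adjusted p = 0.0530), just outside the threshold in limma. It was called in 7 of 19 alternatives, edgeR (0.0496) and DESeq2 (0.00762) among them (range 0.00762 to 0.253). Dtx3l, the ubiquitin ligase partner of PARP9, read 522, 676, 648 and 2.87 against 993, 901, 1021 and 1064. All IL-33 libraries lay below all controls, and replicate 4 was almost without reads (log2 fold change −2.53 with SE 1.25 and −3.18 to −0.70 over alternatives, adjusted p = 0.277). Without replicate 4 the fold change of Dtx3l was −0.70 (adjusted p = 0.504). Parp9, which forms a complex with DTX3L, overlapped between the groups, at 111 to 848 and 214 to 1295 (log2 fold change −0.37 with SE 0.85 and −1.48 to 0.21 over alternatives, adjusted p = 0.830). Dtx3l and Parp9 share 458 exon bases on opposite strands.

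The 6 remaining members gave no call. Lgals3bp, a secreted glycoprotein that binds galectins, had the highest mean normalized count of the list at 5199, with 6256, 3206, 4798 and 6316 after IL-33 and 4291, 8712, 5296 and 2716 after PBS (log2 fold change 0.04 with SE 0.35, adjusted p = 0.958). Its order did not separate the groups. Trim30a, which restrains NF-κB signalling in mice, read 3142, 4039, 3792 and 2955 against 2217, 2856, 2857 and 3041 (log2 fold change 0.34 with SE 0.32, adjusted p = 0.588), and shares 17.8% of its end windows with Trim30d. Xaf1, an antagonist of the apoptosis inhibitor XIAP, had the most negative fold change of the list, at 31.2, 0, 0.987 and 0 after IL-33 and 312, 78.4, 201 and 46.9 after PBS. Every IL-33 library lay below every control, but 3 of them had at most 1 read (log2 fold change −5.46 with SE 2.15 and −6.63 to −3.92 over alternatives, adjusted p = 0.160; adjusted p over alternatives 0.0702 to 0.346). Rtp4, a chaperone for membrane receptors, ran from 303 to 1359 and from 131 to 568 (log2 fold change 1.36 with SE 0.78, adjusted p = 0.360). Ifi35 ran from 79.3 to 1502 and from 337 to 642, and Ifi44 was seen in 1 IL-33 library (69.6) and 2 PBS libraries (64.1 and 1.46).

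**Figure D4:**
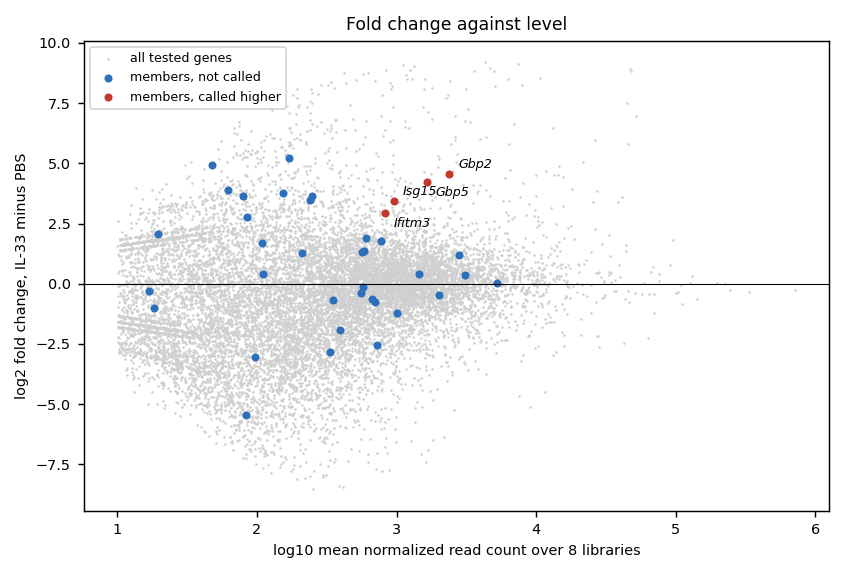
Log2 fold change (vertical axis) against the log10 of the mean normalized read count over 8 libraries (horizontal axis) for all 13877 tested genes (grey), members not called (blue) and the 4 members called higher (red). The called members lie at means from 820 to 2393, and the widest scatter of members and of all genes lies at low means.

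Of the 40 members, 22 had more than 3 reads in every library, 16 had 3 or fewer in at least 1, and 2 had none. Members with at least 10 reads numbered 35, 31, 29 and 30 in the IL-33 libraries and 32, 25, 30 and 31 in the PBS libraries. Within the IL-33 group, replicate 1 was highest for 14 members and replicate 4 for 13, against 5 and 6 for replicates 2 and 3.

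The effect of IL-33 in females was set against that in males, with 2 libraries per treatment and sex. The male IL-33 libraries were replicates 3 and 4, which had the fewest genes with at least 10 reads (8948 and 7958). A difference by sex therefore cannot be told apart from a difference in genes detected. No member was called for a difference in limma, and no gene among 13877 was (0%). At an unadjusted p under 0.05 there was 1 member, Parp9, beside 5.83% of all tested genes. Parp9 had a log2 fold change of −2.06 in females and 1.32 in males (adjusted p = 0.783). For the called members the values in females and males were 4.42 and 4.71 for Gbp2, 4.81 and 3.67 for Gbp5, 3.66 and 3.22 for Isg15, and 4.13 and 1.75 for Ifitm3. All 4 were above 0 in both sexes, which follows from every IL-33 library of these genes lying above every PBS library. edgeR called no gene for this difference and DESeq2 called 538, with no member among them.

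Genes upstream and alongside were taken from a list of 131 further genes of the interferon pathway, of which 130 had a row and 90 were tested. Among them 7 were called higher and 3 lower, with a median log2 fold change of 0.39, beside 3.06% and 2.8% of all tested genes called in each direction. Irf8 was not analysed here. All 21 interferon genes on the list, type I, II and III, had no read in any library, at a limit of 2.20 to 3.12 normalized reads that a count of 0 allows per library. The lambda interferon receptor Ifnlr1 also had no read.

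Among the receptors, Ifngr1, the ligand-binding chain of the interferon-gamma receptor, was lower after IL-33, at 7495, 5202, 6019 and 10239 against 13988, 13690.1, 14392 and 10784. The groups did not overlap (log2 fold change −0.91 with SE 0.25, adjusted p = 0.0351), but the call was lost in 9 of 19 alternatives (adjusted p 0.00165 to 0.394). Its partner Ifngr2 read 2672, 3034, 2665 and 6204 against 2073, 1604, 895 and 1567 (log2 fold change 1.21 with SE 0.42, adjusted p = 0.100, and 0.0298 in DESeq2). Ifnar1 and Ifnar2, the type I receptor chains, had log2 fold changes of 1.03 and 0.29 (adjusted p = 0.324 and 0.667), and Il10rb, a chain of the lambda receptor, 0.16 (adjusted p = 0.861).

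Of the transducers, Jak2 was called higher, at 2286, 1362, 1447 and 2979 against 399, 888, 463 and 577 (log2 fold change 1.79 with SE 0.52, adjusted p = 0.0495). That call sat at the threshold and was lost in 14 of 19 alternatives (0.00376 to 0.156). The kinase Tyk2 was not called in limma, at 2139, 547, 907 and 4139 against 163, 878, 146 and 138, with the groups overlapping through PBS replicate 6 (log2 fold change 2.63 with SE 0.80 and 2.13 to 3.27 over alternatives, adjusted p = 0.0582). It was called higher in 6 of 19 alternatives, among them edgeR (0.0388) and DESeq2 (0.00776), over a range of 0.00776 to 0.217. Jak1 was not called in limma or in any alternative (log2 fold change 0.43, adjusted p = 0.397). Stat2 and Irf9 had log2 fold changes of 0.32 (adjusted p = 0.795) and −0.82 (adjusted p = 0.528). Neither was called, and both overlapped between the groups.

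Among interferon regulatory factors, Irf2, which competes at ISRE sites, was lower at 1869, 1697, 1313 and 2854 against 4765, 6527, 5681 and 4288 (log2 fold change −1.50 with SE 0.35, adjusted p = 0.0122). The call was lost without a variance trend (0.182) and without PBS replicate 6 (0.0659). Irf7, the amplifier of type I interferon production, was chosen for mention after its values were seen. It read 510.2, 211, 739 and 359 after IL-33 and 109, 0, 0 and 0.732 after PBS, without overlap, and missed the threshold (log2 fold change 6.79 with SE 2.03 and 4.04 to 8.42 over alternatives, adjusted p = 0.0549; adjusted p over alternatives 0.0260 to 0.234). The log2 fold change was 4.04 in edgeR and 4.05 in DESeq2. Of 11 genes that induce interferon, the kinase Ikbke was higher, at 2549, 1179, 867 and 2548 against 6.77, 1.70, 3.29 and 5.86 (log2 fold change 8.33 with SE 1.41 and 7.46 to 8.88 over alternatives, adjusted p = 0.000825). Tlr7, the endosomal receptor for single-stranded RNA, was lower at 618, 1164, 755 and 992 against 5731, 3699, 5028 and 4013 (log2 fold change −2.41 with SE 0.40, adjusted p = 0.000646). Socs3, which restrains JAK-STAT signalling, was higher at 3975, 6276, 5434 and 18107 against 774, 40.04, 16.4 and 208 (log2 fold change 6.08 with SE 0.90 and 5.01 to 7.05 over alternatives, adjusted p = 0.000202).

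Of 72 further interferon-responsive genes, 56 were tested and 4 were called, all higher. Cxcl10, a chemokine for activated T cells, was at 7592, 9015, 9063 and 14425 after IL-33 and 109, 23.0, 20.5 and 20.5 after PBS (log2 fold change 8.19 with SE 0.70 and 7.85 to 9.52 over alternatives, adjusted p = 1.9e-07). Slfn5 and Slfn2, Schlafen family regulators, had log2 fold changes of 5.98 (5.00 to 6.92 over alternatives, adjusted p = 0.00367) and 2.72 (2.10 to 3.20 over alternatives, adjusted p = 0.00783). The Slfn5 call was lost without IL-33 replicates 3 and 4 (0.0953), and that of Slfn2 with no minimum mean (0.0523) and without a variance trend (0.154). Tor3a, a torsin ATPase, had 1.65 (adjusted p = 0.0143), lost without a variance trend (0.165), without PBS replicate 8 (0.0553) and without IL-33 replicates 3 and 4 (0.0530). In each of these 4 genes every IL-33 library lay above every PBS library. The other 52 tested genes of this group were not called in limma or edgeR. DESeq2 called 3 of them, where over all genes it called 6.93% higher and 7.64% lower. The 3 were Cd274 (2.84, adjusted p = 0.00275) and Cxcl9 (5.90, adjusted p = 0.0343), both higher without overlap, and Lgals9 (−1.87, adjusted p = 0.0274), lower. For these 3 the log2 fold change is limma's and the adjusted p DESeq2's.

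**Figure D5:**
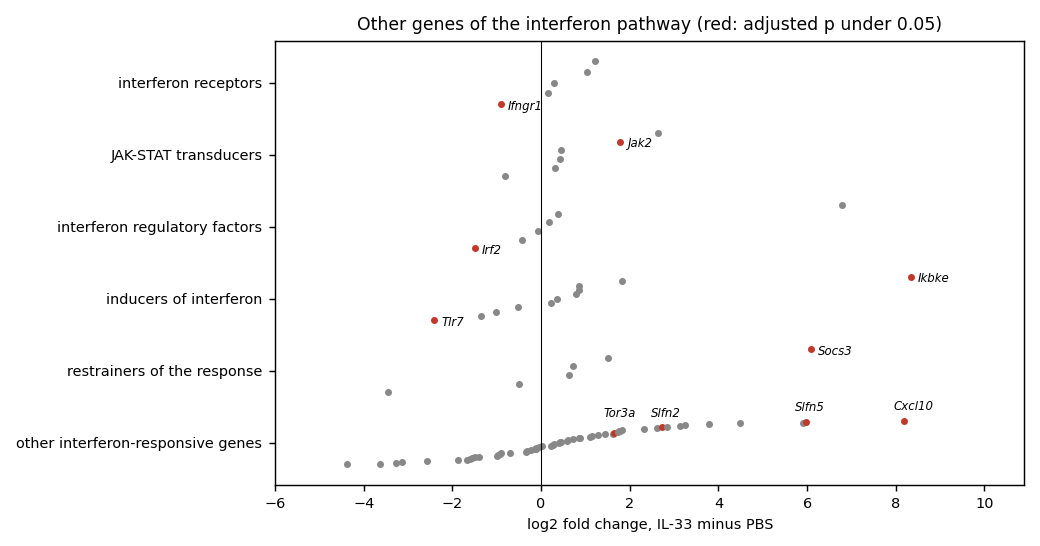
Log2 fold change of 90 tested genes of the interferon pathway outside the list of 40, by role (vertical axis, points spread in order of fold change), in red and named where called. The 7 genes called higher run from 1.65 (Tor3a) to 8.33 (Ikbke), and the 3 called lower are Ifngr1, Irf2 and Tlr7.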

How the data were processed

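RNA of 8 libraries was sequenced by Lexogen QuantSeq FWD, a kit that primes on transcript 3′ ends. The signal the authors deposited is a normalized read count per gene; in every library 100% of values were whole multiples of 1 read, within 0.01 read. Tools in the submitters' processing notes are DESeq2 1.24.0, HTSeq 0.9.0, STAR 2.5.4b and FastQC, beside the builds mm10 and GRCm38, with no roles. How strand, multi-mapping reads and duplicates were handled is not given in the sources used here. Copies made by PCR may be counted more than once, so the limit of 3 counts behind a 0 covers counting error alone. The labels do not say whether each library came from its own animal, so p-values reflect only how these samples spread, which may be technical.

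Groups were compared with limma 3.58.1 (R 4.3.3, variance trend, two-sided) on log2(value + 1), for 13877 genes with a mean of at least 10, with Benjamini-Hochberg adjustment over all of them and calls at 0.05. The added 1 can shrink changes of genes with few reads, but libraries at or near 0 can also make this fold change larger than edgeR's. The log2 fold change was 5.20 in limma and 7.64 in edgeR for Ifit2, and −2.84 and −0.63 for Ddx58. The sex difference was an interaction in the same kind of fit. edgeR 4.0.16 (quasi-likelihood) and DESeq2 1.42.0 were run on the recovered reads and called 757 and 1676 genes. Scripts were tested on simulated data. Other alternatives were pseudocounts of 0.5 and 5, no minimum mean, sex as a covariate, a minimum mean of 50, quantile normalization, TMM scaling, no variance trend, and leaving out each library or IL-33 replicates 3 and 4. The fit without IL-33 replicates 3 and 4 holds no male IL-33 library, so sex is then unbalanced between the groups. Values in every library are given for called members, for the most abundant member of each role, and for members singled out by a property of their values; pathway genes named are those called, the receptors, kinases, Stat2, Irf9 and the interferons, and the values of 1 further gene are not reported here. Members, lists and tests were chosen with earlier results of these data known. Positions are from GENCODE M21, promoters from RefSeq GRCm38.p6.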

Additional observations from a re-analysis of the deposited data

Results flagged for a closer look

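Among 78 groups of 4 libraries examined, 13 had 1 library standing apart from the others by Dixon's test at the 95% level. That level assumes normally distributed values, while the test was run on normalized counts without a log. A group at 0 in all but 1 library is always flagged, as Oas1a in each group, Oasl1 after PBS and Ifi44 after IL-33 were. The number flagged is therefore a description and has no rate by chance beside it. In the PBS group these were Usp18 (199) and Ifit3b (70.7) in replicate 7, Ifitm2 (11.0), Zbp1 (169), Oas1a (138.0) and Mx1 (91.5) in replicate 5, Oasl1 (0.733, a single read) in replicate 8 and Ifi44 (64.1) in replicate 7. In the IL-33 group they were Trim25 (1175) in replicate 4, Oas1a (7.27), Xaf1 (31.2) and Ifi44 (69.6) in replicate 1, and Cmpk2 (155) in replicate 2. None of these members was called in limma; DESeq2 called Oasl1 (adjusted p = 0.00833) and the fit without a variance trend called Ifitm2 (0.0310). None of the 4 members called in limma had such a library.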

How the results depend on the processing

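No paired analysis was possible because the groups share no replicate numbers. Gbp2, Gbp5 and Isg15 were called under all 19 alternatives; Ifitm3 and Parp14 were not, as given above, and Ifitm2 was called without a variance trend. No alternative called a member lower. The number of members called higher was 4, was 9 with DESeq2, and ran from 3 to 5 under the others, with 1 library left out included; the median over members lay between 0.95 and 1.56. Under quantile normalization the median over all genes shifted by 0.29 and the members' median was 1.56. The count over all genes was 812, and 501 with no minimum mean, 413 with no variance trend, 1676 with DESeq2 and 458 to 963 with 1 library left out. For the sex difference, 0 genes became 538 with DESeq2 and 0 to 5 with 1 library left out. For the guanylate-binding protein pairs, pseudocounts of 0.5 and 5, chosen after seeing the data, changed no call. The cause of these differences was not tested.

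Signs turned for uncalled genes, among them Ifih1 and Irf9, whose log2 fold changes in limma with all libraries were −0.66 and −0.82. Without IL-33 replicates 3 and 4 the log2 fold change was 0.64 for Ifih1, −0.057 for Mx2, 0.13 for Ifi35, 1.24 for Ifi44, −0.10 for Lgals3bp, −0.11 for Il10rb and 0.31 for Irf9. With quantile normalization it was 0.10 for Ifih1, 0.13 for Ifi35, −0.16 for Lgals3bp and −0.035 for Il10rb. edgeR gave 0.46 for Ifi35, 0.10 for Ifi44 and −0.021 for Lgals3bp, DESeq2 gave 0.46 for Ifi35 and −0.029 for Lgals3bp, and a pseudocount of 0.5 gave −0.014 for Mx2. With 1 library left out the values ran from −1.40 to 0.29 for Ifih1, −1.31 to 1.79 for Mx2, −0.77 to 0.21 for Parp9, −0.76 to 0.65 for Ifi35, −0.91 to 1.10 for Ifi44, −0.23 to 0.33 for Lgals3bp, −0.25 to 0.37 for Il10rb and −0.077 to 0.61 for Stat2. Of the 38 tested members, 16 had 3 or fewer reads in some library.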
